A study of Oryza sativa with 18 samples.

Results

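The cell state described here is the cortex meristem of rice roots, which the authors' table of chromatin accessibility holds as 2 of its 128 columns, Cortex_meristem of seminal root and Cortex_meristem of crown root. The columns were taken by name, and each was set against the mean of the other columns of its own root, 12 in seminal root and 13 in crown root, and against single states of that root. The nuclei came from fresh tissue of Oryza sativa, genotype Nipponbare (treatment label Fresh), and the age of the plants was not given in the sources used here. Seminal root, the root formed in the embryo, had 2 libraries, and crown root, which arises from the stem, had 2 libraries, with 16000 nuclei put into each. The assay was droplet ATAC-seq of single nuclei: a transposase inserts adapters where chromatin is open, and a barcode tells the nuclei apart.

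The root cortex is the ground tissue between the epidermis and the stele. Its cells descend from initials beside the quiescent centre (QC), a group of slowly dividing cells that keeps the surrounding initials undifferentiated. In Arabidopsis the transcription factors SHORT-ROOT and SCARECROW control the divisions that set cortex and endodermis apart, and in rice the ground tissue forms several cell layers, of which the innermost is the endodermis. The cortex meristem is the dividing part of this cell file, and the mature cortex of rice roots is known for air spaces that form in it under flooding. Accessible regions are stretches where transcription factors can reach the DNA, among them promoters and enhancers, so the set of open regions describes the regulatory state of a cell type. Stele initials and procambial meristem are the dividing cells of the central cylinder, and atrichoblasts are epidermal cells that form no root hair.

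Each column is 1 value per region, pooled by the authors over the 2 libraries of its root, so no value below has an SD, and no p-value was computed. The states are also clusters of the same accessibility values, so a state set against the rest is a description. The libraries of seminal root and of crown root are separate, so a call was required in both roots. Values are CPM, the field's unit for counts scaled to one common total per column, and a difference is on the log2(CPM + 1) scale. A region was called higher or lower when its difference went beyond 1 in the same direction in both roots, among the 127049 regions that reached a CPM of 1 in some column of each root. Depth was not given. Distinct values per column were counted in its place, and there were 514 for cortex meristem of seminal root and 471 for that of crown root, against root medians of 320 and 300.5. There were 1956 and 1247 for Cortex, 300 and 284 for Atrichoblast, 200 and 109 for QC and 74 and 80 for Columella, in seminal and crown root in that order, and Seminal_root_UN1, a state without a cell type name, had 58. The name of the state was not checked against marker genes, since no gene annotation of the files' build was used here.

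Set against the other root states, cortex meristem had more regions of higher than of lower accessibility. In both roots 2093 regions were called higher (1.65% of the regions tested) and 486 were called lower (0.383%). More higher than lower regions were found by the same rule for all 12 states present in both roots, for example 2668 and 274 for Endodermis and 2005 and 355 for Cortex. The median CPM of the higher regions was 14.8 in cortex meristem of seminal root and 14.3 in that of crown root, against 6.59 and 5.58 for the mean of the other states. For the lower regions it was 2.57 and 2.96 in cortex meristem, against 9.11 and 10.0 for the other states. Higher regions made up 81.2% of the calls, a share that depended on the scale: it was 65.9% on the log2 values as deposited and 97.9% with a pseudocount of 5.

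As a plain share, the calls of 1 root carried over to the other more often for higher than for lower regions. Seminal root alone had 2823 higher regions, of which 74.1% were also called in crown root, where 3.09% of all regions were. Crown root alone had 3923 higher regions, of which 53.4% were also called in seminal root, where 2.22% of all were. Of the 1276 lower regions of seminal root, 38.1% were called in crown root against 1.50% of all regions there, and of the 1912 of crown root, 25.4% were called in seminal root against 1%. Higher calls were thus also more frequent among all regions, and whether the directions differ beyond that was not tested. From seminal to crown root the same order held for every state present in both roots, for example 67.3% and 38.8% for Atrichoblast. No region was called in opposite directions for cortex meristem.

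**Figure D1:**
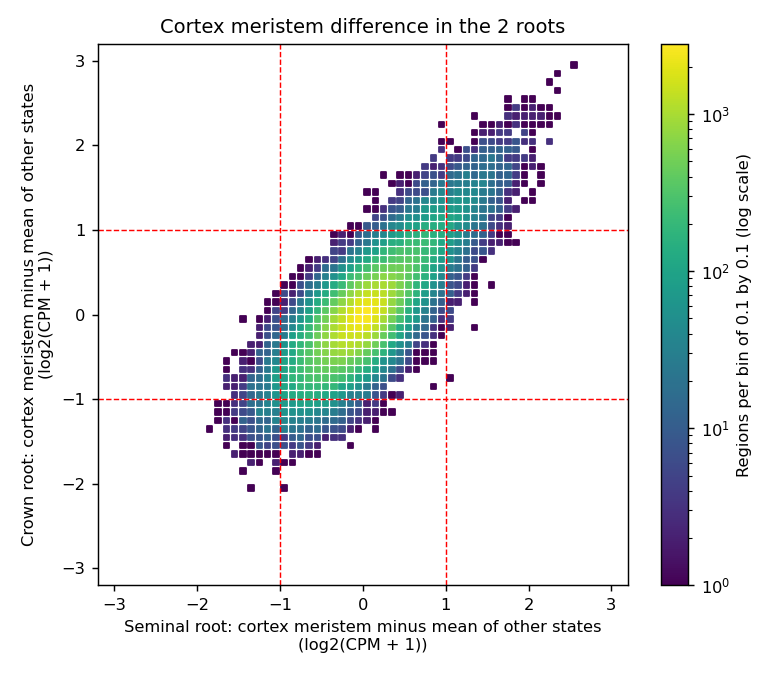
Difference of cortex meristem from the mean of the other states (log2(CPM + 1)) in seminal root (x axis) and crown root (y axis) for 127049 regions. Colour gives the number of regions per bin on a log scale, and the dashed red lines mark 1 and -1. The upper right corner holds the 2093 regions called higher and the lower left corner the 486 called lower, and the other corners are empty.

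The 12 leading regions by the smaller of the 2 differences had differences between 2.11 and 2.95, and 8 of them lay on chromosome 8 between 27646451 and 27695514, in a block described further on. The region with the largest difference was chromosome 8 from 27695014 to 27695514. Cortex meristem had a CPM of 25.2 in seminal root and 24.2 in crown root. In seminal root the other states ran from 0.494 in Endodermis over a median of 2.01 to 29.2 in Seminal_root_UN1, followed by 24.3 in Atrichoblast. In crown root they ran from 0.300 in Crown_root_UN2 over a median of 1.54 to 20.4 in Atrichoblast, followed by 20.2 in Columella. The differences were 2.54 in seminal root and 2.95 in crown root. The region was thus open in cortex meristem and atrichoblast of both roots at similar values, and Cortex, at 1.52 and 1.11, was among the low states.

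The other 4 leading regions lay outside this block. Chromosome 6 from 30854981 to 30855481 showed 23.9 in cortex meristem of seminal root and 23.1 in that of crown root, and Atrichoblast, at 20.5 and 19.5, came next among the named states. That on chromosome 5 from 20199841 to 20200341 had 27.9 and 26.8 in cortex meristem and 17.9 and 20.2 in Atrichoblast. In both regions Atrichoblast was high, as in the block, although Seminal_root_UN1 reached 34.4 on chromosome 5. A different order held on chromosome 12 from 1598947 to 1599447, where cortex meristem had 16.1 and 13.6, QC 10.7 and 9.15, and Atrichoblast 3.87 and 4.93. Outside the roots that region was highest in SAM, the shoot apical meristem state of early seedling, at 17.5.

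The region on chromosome 1 from 24180067 to 24180567 was the one of the 12 in which cortex meristem exceeded every other named root state by more than 1 in both roots. Cortex meristem had 19.2 in seminal root and 17.0 in crown root. The next named state was Stele_initials at 6.88 in seminal root and Cortex at 6.49 in crown root, while QC had 2.28 and 1.88 and Atrichoblast 2.99 and 3.74. Seminal_root_UN1 reached 25.3. In other organs it went up to 14.5 in Epiblast of late seed, and the authors' list names 14 states for it, most of them of early or late seed.

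**Figure D2:**
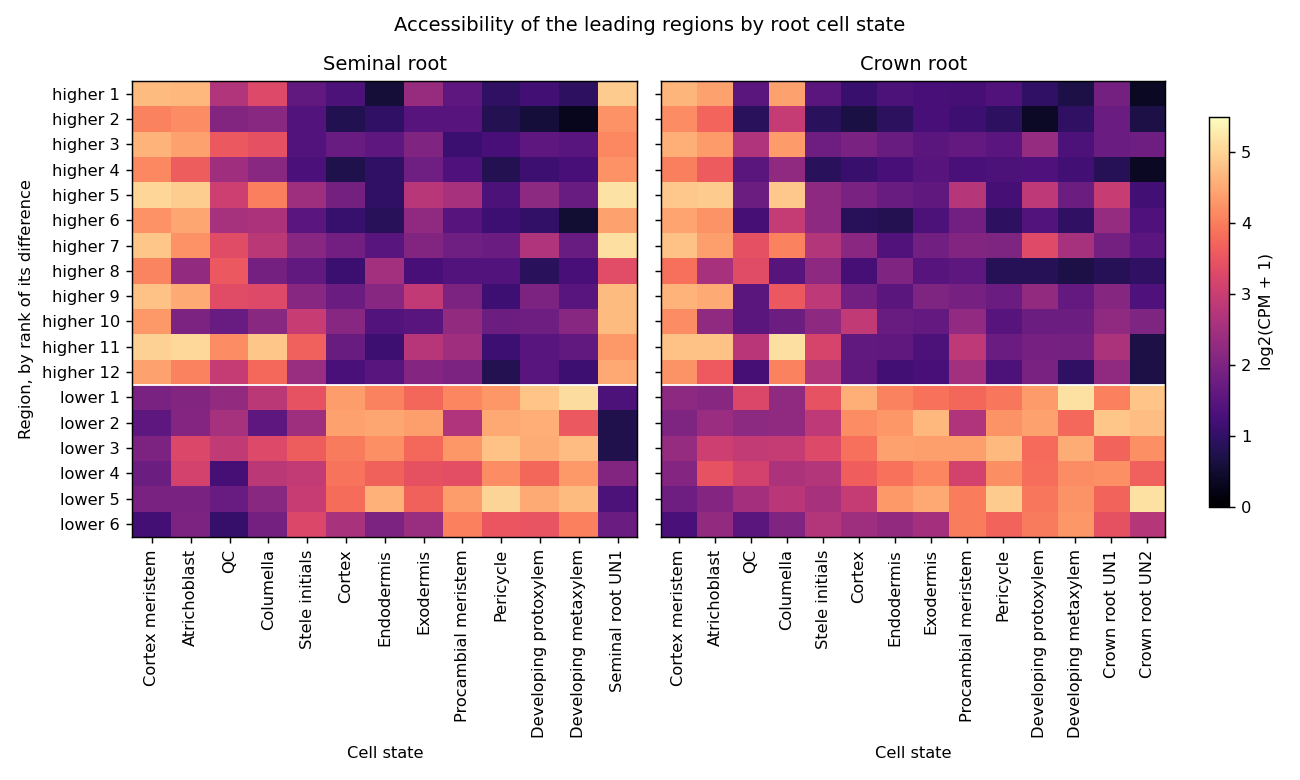
Accessibility (log2(CPM + 1), colour) of the 12 regions with the largest and the 6 with the most negative difference of cortex meristem, by root cell state, in seminal root (left) and crown root (right). The higher regions are also bright in Atrichoblast, except those on chromosomes 1 and 12. The lower regions are bright in the xylem states and Pericycle, and most of them in Cortex.

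Lower regions were led by sites open in the stele, and most of these were open in Cortex as well. On chromosome 2 from 25866740 to 25867240, cortex meristem showed 2.85 CPM in seminal root and 3.65 in crown root, against medians of 14.1 and 14.4 over the other states and 33.9 and 35.1 in Developing_metaxylem, the water-conducting cells in formation. On chromosome 7 from 77461 to 77961 it had 1.99 and 3.05, against medians of 8.06 and 17.2. On chromosome 11 from 3884761 to 3885261 it had 2.96 and 4.06, against 26.9 and 24.7 in Pericycle, the outer layer of the stele from which lateral roots start. The remaining 3 of the 6 regions, on chromosomes 1, 8 and 10, had differences between -1.88 and -1.44. In all 6 the highest named state of seminal root was Pericycle or a xylem state, and the list calls all 6 broadly accessible. Cortex had 19.6 and 23.0 in the chromosome 2 region and 20.4 and 17.2 in that on chromosome 7, but 5.02 and 4.38 in that on chromosome 10. Over all 486 lower regions the median CPM was 10.3 and 8.78 in Cortex and 10.7 and 10.0 in Endodermis. In Developing_metaxylem it was 15.6 and 14.4.

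Over all 2093 higher regions the same gradient appeared. After cortex meristem, with medians of 14.8 and 14.3, the named states with the highest median CPM were Atrichoblast (10.2 in seminal root and 9.42 in crown root), QC (10.1 and 7.89) and Columella (6.93 and 7.45), the central root cap. Cortex had 3.88 and 4.67, and the lowest named state was Developing_metaxylem at 2.70 and 3.002. Pericycle had 2.75 and 3.23, and Exodermis 3.63 and 3.17. Seminal_root_UN1 reached 14.2 and was the highest column of seminal root in 38.6% of these regions, against 24.1% for cortex meristem. In crown root cortex meristem was the highest column in 53.5% and Columella followed with 12.6%. Over all tested regions cortex meristem was highest in 2.43% in seminal root and 4.69% in crown root, Seminal_root_UN1 in 14.6% and Columella of crown root in 12.8%. Seminal_root_UN1 is the shallowest column of the seminal root and Columella the shallowest of the crown root, and the part of depth in these shares was not tested.

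**Figure D3:**
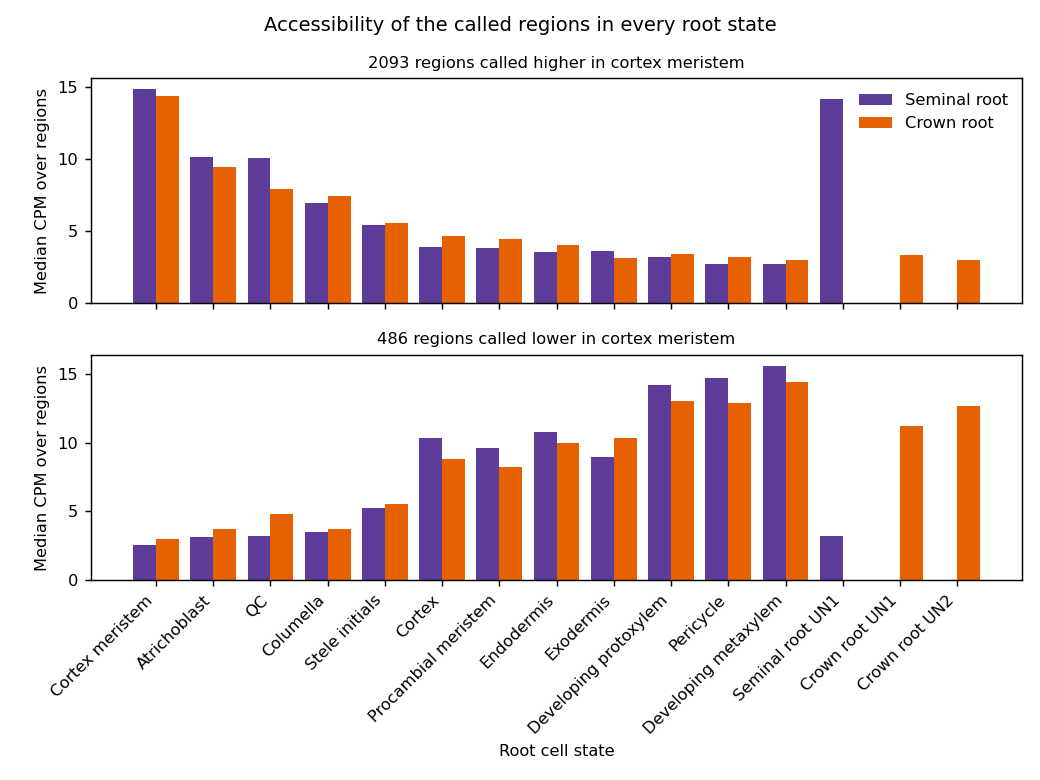
Median CPM of each root cell state over the regions called higher (top) and lower (bottom) in cortex meristem, with seminal root in purple and crown root in orange. A state found in 1 root has 1 bar. Among the named states, Atrichoblast, QC and Columella come next to cortex meristem in the upper panel and are nearest to it in the lower panel, Seminal_root_UN1 is at 14.2 in the upper and 3.23 in the lower panel, and Developing_metaxylem reaches 15.6 in seminal root in the lower panel.

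Across all regions the column closest to cortex meristem was Atrichoblast in both roots, with a Pearson correlation of log2(CPM + 1) over regions of 0.923 in seminal root and 0.910 in crown root. In seminal root QC followed at 0.911, then Seminal_root_UN1 at 0.886 and Stele_initials at 0.884, and Cortex at 0.867. In crown root Cortex was second at 0.901, Endodermis had 0.884, Procambial_meristem 0.876 and QC 0.873. The most distant named state was Developing_metaxylem in both roots, at 0.795 and 0.821. Columns of a root share libraries and differ in depth, and the part of depth in this order was not tested.

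Cortex meristem was then set against the single meristem states. Against QC, 2366 regions were called higher (1.86%) and 1447 lower (1.14%). Against Stele_initials, 3735 were higher (2.94%) and 3297 lower (2.60%), and against Procambial_meristem 4593 were higher (3.62%) and 5661 lower (4.46%). The QC and Stele_initials columns of crown root were shallow, with 109 and 118 distinct values, and the spread of the differences was wider there: the SD over regions of the difference from QC was 0.53 in seminal root and 0.64 in crown root. The differences from QC also matched less well between the roots than those from Procambial_meristem, with correlations over regions of 0.536 and 0.825, and 17 regions were called in opposite directions against QC, 15 against Stele_initials and 0 against Procambial_meristem.

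Single regions showed large differences from each meristem state. On chromosome 3 from 11155540 to 11156040, cortex meristem showed 17.2 CPM in seminal root and 18.0 in crown root, and QC had 1.65 and 0.859. On chromosome 1 from 42469160 to 42469660 cortex meristem had 1.74 and 1.47, and QC, the highest state of either root there, had 19.2 and 15.9. Stele_initials followed QC there at 10.5 and 13.0, and the medians over the states other than cortex meristem were 1.68 and 1.06.

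Among the regions named for their difference from Stele_initials, the gap was wide in either direction. On chromosome 1 from 8769225 to 8769725 cortex meristem had 1.39 and 1.94, against 32.9 and 30.9 in Stele_initials, a difference of -3.83 in seminal root and -3.44 in crown root, and Procambial_meristem was open there as well, at 34.1 and 29.5. On chromosome 2 from 2825953 to 2826453 the order was turned round, with 20.1 and 20.4 in cortex meristem against 1.85 and 1.92 in Stele_initials.

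Set against Procambial_meristem, chromosome 3 from 36147922 to 36148422 showed 33.2 and 32.9 in cortex meristem against 2.50 and 2.33, and QC was also open there, at 27.2 in seminal root and 29.3 in crown root. On chromosome 5 from 28927076 to 28927576 cortex meristem had 1.74 and 1.47 against 29.7 and 25.6 in Procambial_meristem. Cortex meristem exceeded all 3 other meristem states at once in 553 regions (0.435%) and lay below all 3 in 167 (0.131%).

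Cortex meristem was also read in regions where the 3 other meristem states were high together. In 449 regions QC, Stele_initials and Procambial_meristem were each more than 1 above the mean of the non-meristem states in both roots, a choice that did not use cortex meristem. There cortex meristem was above that mean in both roots in 366 (81.5%), and by more than 1 in 84 (18.7%), against 2.10% of all tested regions. Its median difference from that mean was 0.63 in seminal root and 0.65 in crown root, against 1.96 and 2.07 for Stele_initials. The share of all regions above that mean in both roots was not taken, and no single non-meristem state was read in the 449 regions. Whether high values there are a trait of meristems was therefore not tested. Regions called higher for 1 state against the rest of its root gave mixed values. The median difference of cortex meristem from its other states was 0.60 in seminal root and 0.43 in crown root for QC. It was 0.017 and -0.023 for Stele_initials and -0.36 and -0.24 for Procambial_meristem. For Atrichoblast, which is not a meristem state, it was 0.44 and 0.27.

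**Figure D4:**
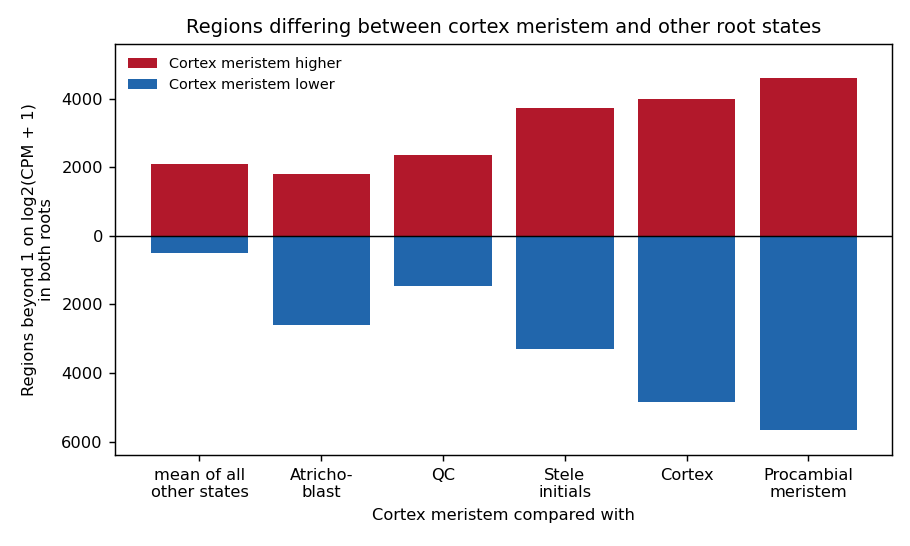
Number of regions in which cortex meristem was higher (red, upward) or lower (blue, downward) by more than 1 on the log2(CPM + 1) scale in both roots, against the mean of all other states and against 5 single states. The bars against Cortex and Procambial_meristem are the tallest, and against Atrichoblast 1808 regions are higher and 2602 lower.

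Against the Cortex column of the same root, 4002 regions were called higher (3.15%) and 4859 lower (3.82%). Accessibility on chromosome 3 from 5530042 to 5530542 was 27.5 CPM in cortex meristem of seminal root and 21.1 in that of crown root, against 1.44 and 1.18 in Cortex. On chromosome 3 from 31665657 to 31666157 it was 1.49 and 2.76 in cortex meristem against 15.3 and 22.1 in Cortex, which was the highest state of either root. On chromosome 7 from 5597706 to 5598206 it was 1.99 and 1.66 against 19.7 and 18.0.

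Whether cortex meristem lies between QC and Cortex was followed in regions chosen by these 2 states in 1 root and read in the other root. In 11145 regions Cortex exceeded QC by more than 1 in crown root. In seminal root, cortex meristem was there above QC by a median of 0.35 and below Cortex by a median difference of -0.78, and it lay between the 2 states in 62.9% of the regions. In 9222 regions QC exceeded Cortex in crown root, and in seminal root cortex meristem differed from QC by -0.47 and from Cortex by 0.70. With the roots exchanged the medians were 0.21 and -0.73 in 14191 regions, and -0.44 and 0.59 in 10791. Cortex meristem was thus intermediate on the median in each of the 4 sets, and on the median nearer to QC than to Cortex. Region by region it was closer to QC in 65.1%, 58.8%, 65.7% and 51.9% of the sets' regions, in the order given. The share lying between the 2 states was 74.5%, 53.9% and 63.6% in the other three sets, in the order given. The same held for other pairs of states: cortex meristem was intermediate on the median in all sets, lying between Atrichoblast and Cortex in 62.4% to 69.9% of the regions, between QC and Atrichoblast in 56.2% to 63.1%, and between Procambial_meristem and Cortex in 59.4% to 68.6%. The regions were chosen because the 2 states of a pair differ, and no other state was read in them. A place between 2 states is therefore not shown to be particular to cortex meristem.

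Atrichoblast, the closest column, still differed from cortex meristem in 1808 regions called higher (1.42%) and 2602 called lower (2.05%). This comparison was chosen after seeing the correlations. On chromosome 6 from 17827340 to 17827840, cortex meristem had 17.5 in seminal root and 18.2 in crown root and Atrichoblast 1.53 and 2.17, while Cortex, at 23.1 and 32.6, was the highest state. On chromosome 8 from 9337587 to 9338087, cortex meristem had 2.41 and 1.37 and Atrichoblast 28.7 and 26.8, while Columella had 26.6 and 42.7. The first of these regions was thus high in Cortex and QC, which had 22.6 and 28.1, and the second in the root cap state. With a pseudocount of 5 the share of higher calls in this comparison was 30.1%, against 41.0% with 1.

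The longest run of called regions lay on chromosome 8 from 27642850 to 27695514, a block of 52.7 kb, when called regions no more than 20 kb apart were joined. It held 29 regions, of which 26 were called higher, against 1 of 37 within 50 kb on either side. Joining ends a block on called regions and takes in the called ones within 20 kb, so this contrast follows in part from the rule. The median over its regions was a CPM of 17.9 in cortex meristem of seminal root and 18.2 in that of crown root, with single regions between 5.07 and 31.6. Atrichoblast had medians of 19.4 and 18.1, Columella 8.80 and 13.3, QC 6.73 and 2.43 and Cortex 2.60 and 2.79. Pericycle had 1.37 and 1.66 and Endodermis 1.56 and 1.92. The block was about as open in Atrichoblast as in cortex meristem, and Seminal_root_UN1 had 20.3.

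The centres of neighbouring regions of this block were a median of 1783 bases apart (interquartile range 1537 to 1978), against 1347 over all neighbouring regions of the table. Outside the roots most of its regions had low values, with exceptions such as chromosome 8 from 27648233 to 27648733, called higher, where the median over the non-root states was 6.40 and the highest 12.9. The median over its regions ranged over the 101 non-root states from 0.266 to 3.03, the highest being Xylem_parenchyma of early seedling, which had 51 distinct values. The list names cortex meristem for 21 of its 29 regions and calls 3 broadly accessible, against 3.86% and 60.8% of all tested regions. The block was chosen for high cortex meristem values and the list comes from the same nuclei, so these contrasts follow in part from the choice. The genes in the block are not named, since no annotation of the files' build was used here.

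**Figure D5:**
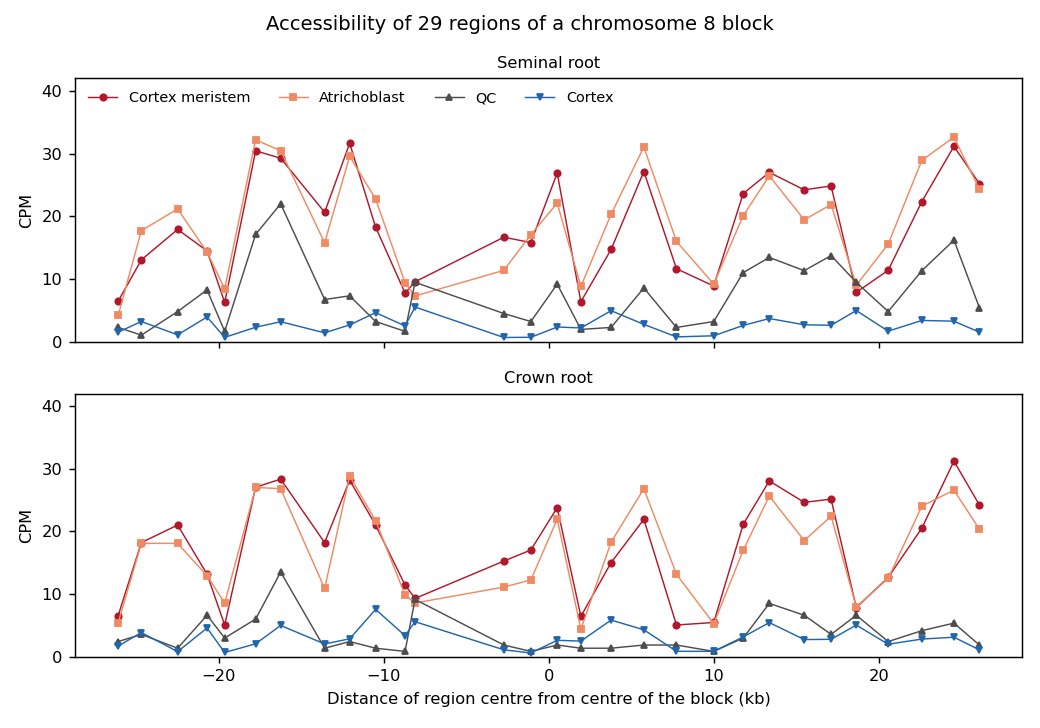
CPM of the 29 regions of the chromosome 8 block against the distance of each region from the centre of the block (kb), in seminal root (top) and crown root (bottom). Cortex meristem (red circles) and Atrichoblast (orange squares) mostly run together, reaching 31.6 and 32.6 in seminal root. QC (grey triangles) is lower in most regions, and Cortex (blue, pointing down) goes no higher than 7.56.

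The margin of cortex meristem over the next state was mostly small. Cortex meristem was the highest named state of both roots in 857 of the 2093 higher regions (40.9%), and the highest column of both roots in 367 (17.5%). Over all tested regions it was the highest column of both roots in 1071 (0.843%), and the share for named states was not taken. The higher regions were chosen for high values in cortex meristem, so larger shares among them follow in part from the choice. In only 10 of the higher regions did cortex meristem exceed the next named state by more than 1 in both roots, and in no region once the unnamed states were counted. The largest margin over every other column was 0.79. Behind the chromosome 1 region given above, the widest margin over the named states, by the smaller of the 2 root margins, was on chromosome 4 from 3138108 to 3138608, chosen after its values were seen. Cortex meristem had 12.6 and 8.82 there, against 5.14 in QC of seminal root and 3.10 in Atrichoblast of crown root. Seminal_root_UN1 had 14.2, and no non-root state exceeded 5.67.

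The authors' list of regions specific to cell states names cortex meristem of seminal root for 4785 regions and that of crown root for 1584. Both are named for 1457, which is 30.4% of the seminal root list (exact 95% interval 29.1 to 31.8) and 92.0% of the crown root list (90.5 to 93.3). A region listed for cortex meristem of either root named a median of 9 states, against 5 for all specific regions, and 1683 of 4912 (34.3%) named root states only. A region that names many states is more likely to name any given one, so the higher median follows in part from the choice. The median for regions listed for other states was not taken. Cortex meristem and no other state was named for 11 regions, of which 1 named both roots. That region, on chromosome 4 from 14043306 to 14043806, showed 4.29 and 5.07 CPM in cortex meristem, with Columella at 3.46 in seminal root and QC at 4.78 in crown root next to it.

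The states most often listed together with cortex meristem were Atrichoblast of seminal root, in 3076 of the 4912 regions, and Seminal_root_UN1 in 2658. These are 62.6% and 54.1% of the cortex meristem regions, and 46.0% and 47.5% of the lists of those states. QC of crown root had a short list of 1244, of which 64.3% also named cortex meristem, against 11.5% of all specific regions. In regions listed for both roots the median difference of cortex meristem from the other states was 0.86 in seminal root and 0.94 in crown root. In those listed for seminal root only, the medians were 0.38 and 0.22. The list and the table come from the same nuclei, so these values describe how the files relate. Of the 2093 regions called higher here, the list names cortex meristem for 594 (28.4%, against 3.86% of all tested regions) and calls 1377 (65.8%) broadly accessible, a word it gives to 60.8% of all tested regions.

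The 2093 regions were read in the states of other organs, which the calls did not use. Each state was set against the mean of the other states of its organ. The median difference was largest in SAM of early seedling, at 0.59, followed by Bundle_sheath of early seedling (0.50), Bundle_sheath of seedling (0.45) and Seedling_UN3 of seedling (0.43), against medians between -0.0375 and 0.0034 for these columns over all tested regions. In SAM, a column with 174 distinct values, 24.7% of the regions were more than 1 above the other states, against 2.90% of all tested regions. Radicle_meristem, the root meristem of the embryo, did not follow: its median difference was -0.15 in early seed and -0.14 in late seed. Nor did most other meristem states. Shoot_meristem had -0.04 in early seed and -0.09 in late seed, and the meristem states of panicle ran from 0.006 in Epidermis_meristem to -0.24 in SBM. Procambial_meristem had 0.14 in early seedling, -0.14 in seedling and -0.12 in axillary bud. In the 486 lower regions SAM of early seedling had a median difference of -0.66. The regions called higher were least open in leaf, where the mean log2(CPM + 1) of the states ran from 1.72 to 1.996, against 2.08 to 3.13 in early seedling and 3.96 and 3.92 in cortex meristem of seminal and crown root. Over all tested regions this mean lay between 2.59 and 2.61 in every column. The leaf states were thus below that level, and the early seedling states lay on either side of it.

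Of all non-root columns Seedling_UN3, an unnamed state of seedling, was closest to cortex meristem, with correlations of 0.892 with that of seminal root and 0.872 with that of crown root. Cortex of the same root had 0.867 and 0.901. Its list holds 486 regions, of which 67.3% also name cortex meristem. Of the 2093 higher regions, 130 (6.21%) had no non-root state that reached the lower cortex meristem value divided by 2, against 0.193% of all tested regions. In 1451 (69.3%) 1 or more non-root states exceeded the lower cortex meristem value, against 97.8% of all tested regions. The calls select high cortex meristem values, so both contrasts follow in part from the choice of regions.

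Seminal root and crown root differed little in cortex meristem. The correlation of the 2 columns over regions was 0.972, the fourth highest of the 12 states found in both roots. The difference from the other states, seminal root minus crown root, had an SD of 0.31 over regions, the second smallest of the 12 states. On both measures Cortex, with 1956 and 1247 distinct values, agreed best between the roots and Columella, with 74 and 80, least. The part of depth in these ranks was not tested. The difference was more than 1 higher in seminal root in 188 regions (0.148%) and lower in 136 (0.107%). The widest was on chromosome 12 from 26786936 to 26787436, where cortex meristem had 5.19 in seminal root and 0.739 in crown root, and Atrichoblast 6.75 and 3.10. On chromosome 2 from 31090715 to 31091215 cortex meristem had 4.89 in seminal root and 11.5 in crown root, and Procambial_meristem 11.2 and 12.2. Such regions had low or moderate values, and with no replicate columns these differences have no error.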

How the data were processed

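Single-cell ATAC-seq was made from 18 libraries of 9 organs, 2 per organ, of which 4 were root libraries. The authors deposited a table of log2 values, 1 column for each of 128 cell states and 1 row for each of 128764 regions of 501 bases, and a list that names states for each specific region or calls it broadly accessible. BWA and MACS2 are named in the submitters' processing notes. Not given in the sources used here were their settings, the genome build, and how nuclei were filtered, clustered, named and checked for doublets.

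The deposited log2 values were read as log2 CPM, since 2 raised to them sums to between 1007548 and 1008613 in each column. The design had foreseen CPM, so values were turned into CPM this way, and differences were taken on log2(CPM + 1). A region stayed in when some column of each root reached a CPM of 1, which left out 1715. A call needed a difference beyond 1 in the same direction in both roots. Columns pool the libraries, so there are no replicates, no test was run, and the depth is unknown. Intervals of shares are exact binomial ones and cover counting error only.

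Regions named are the 12 largest and 6 most negative differences from the other states, by the weaker of the 2 roots, the 3 largest and 3 most negative against each single state, the 4 largest and 4 most negative between the roots, and those listed for cortex meristem of both roots and no other state. The members, lists and rules were chosen with earlier results of these data known. Coordinates are 1-based, on the files' own build. No column was left without a state (0 unassigned). The calling step was tested on simulated data. Python 3.11.15, pandas 2.3.3, NumPy 2.4.6, SciPy 1.17.1 and matplotlib 3.10.9 were used. Alternatives were other pseudocounts, filters, thresholds and compared states. Nearby genes and motifs were not analysed here.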

Additional observations from a re-analysis of the deposited data

Results flagged for a closer look

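Among the 8 regions named for the widest gaps between the roots, 4 had a difference of cortex meristem from the other states that was positive in seminal root and negative in crown root. Smaller differences of opposite sign were common among the other regions. With 1 column per root this difference was not tested. On chromosome 12 from 26786936 to 26787436 it was 1.04 in seminal root and -0.72 in crown root, 1.75 apart. On chromosome 2 from 24260270 to 24260770 cortex meristem had a CPM of 7.87 in seminal root and 1.47 in crown root, and the differences were 1.74 apart, while QC was open in both roots at 17.1 and 22.0. On chromosome 1 from 7589773 to 7590273 the CPM was 3.02 in seminal root and 0.860 in crown root, and the differences were 1.52 apart. On chromosome 1 from 39152628 to 39153128 it was 9.33 in seminal root and 2.96 in crown root, with QC at 32.2 and 36.8, and the differences were 1.49 apart.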

How the results depend on the processing

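Counts moved with the scale and the threshold, and so did the values of the named regions: of 390 alternatives over 57 such results, 217 moved the value, 173 did not and 0 changed its sign. Counts within 1.5 times the reported ones are left out of the following. With a pseudocount of 0.1 the counts were against the other states 3570 higher and 1660 lower, against QC 4205 higher and 3381 lower, against Stele_initials 5963 higher and 5353 lower, against Procambial_meristem 6981 higher, against Cortex 6180 higher and 7353 lower, against Atrichoblast 3409 higher and 4124 lower, for seminal root minus crown root 2255 higher and 2050 lower. With a pseudocount of 5 the counts were against the other states 371 higher and 8 lower, against QC 388 higher and 276 lower, against Stele_initials 885 higher and 1077 lower, against Procambial_meristem 1226 higher and 1956 lower, against Cortex 1131 higher and 1225 lower, against Atrichoblast 282 higher and 655 lower, for seminal root minus crown root 0 higher and 0 lower. With the log2 values as deposited the counts were against the other states 3820 higher and 1974 lower, against QC 4560 higher and 3911 lower, against Stele_initials 6441 higher and 5940 lower, against Procambial_meristem 7487 higher, against Cortex 6647 higher and 7837 lower, against Atrichoblast 3790 higher and 4506 lower, for seminal root minus crown root 2997 higher and 2803 lower. With a threshold of 0.5 the counts were against the other states 9320 higher and 7085 lower, against QC 10597 higher and 9071 lower, against Stele_initials 13130 higher and 10733 lower, against Procambial_meristem 14149 higher and 13748 lower, against Cortex 13298 higher and 15166 lower, against Atrichoblast 9140 higher and 9021 lower. With a threshold of 2 the counts were against the other states 25 higher and 0 lower, against QC 52 higher and 40 lower, against Stele_initials 158 higher and 413 lower, against Procambial_meristem 260 higher and 787 lower, against Cortex 289 higher and 115 lower, against Atrichoblast 32 higher and 184 lower. With seminal root alone the counts were against the other states 1276 lower, against QC 5074 higher and 3219 lower, against Stele_initials 6648 higher and 5835 lower, against Procambial_meristem 7703 higher, against Cortex 7077 higher and 8721 lower, against Atrichoblast 3328 higher. With crown root alone the counts were against the other states 3923 higher and 1912 lower, against QC 7848 higher and 6167 lower, against Stele_initials 10261 higher and 8102 lower, against Atrichoblast 4215 higher and 4759 lower. Of regions lower than the other states there were 1170 without the 3 other meristem states, 961 without columns under 100 distinct values and 741 without Atrichoblast, the last chosen after seeing the data. Above the highest or below the lowest other state by more than 1 in both roots there were 0 regions. The share of seminal root calls also called in crown root was 71.5% with a pseudocount of 5, 72.5% at 0.5 and 71.4% at 2, against 74.1%. That of crown root calls also called in seminal root was 55.1% with a pseudocount of 0.1, 41.8% with 5, 62.0% at 0.5 and 24.0% at 2, against 53.4%. The cause was not tested.

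No paired analysis was possible because the columns pool the libraries and carry no replicate number. For the same reason leaving out a library was not possible, and each root alone was used instead. The gene list and motif alternatives were not run. Shallow columns, such as QC and Stele_initials of crown root, limit the comparisons with those states.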

Other observations

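A second run of called regions lay on chromosome 6 from 30851095 to 30865996. It held 12 regions, of which 10 were called higher. The median CPM was 21.0 in cortex meristem of seminal root and 22.1 in that of crown root, against 20.1 and 17.5 in Atrichoblast, 7.18 and 4.18 in QC and 3.18 and 4.61 in Cortex. Outside the roots Seedling_UN3 of seedling had the highest median, at 6.10, so this run was less closed in other organs than the one on chromosome 8.

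Regions called higher often lay side by side. The next region along the chromosome was also called higher for 21.3% of them, and for 20.5% without the chromosome 8 block, against 1.65% of all regions. For regions called lower it was 4.32%, against 0.383%.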
